A study of Mus musculus with 6 samples.

Results

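Transcripts of the machinery that copies ribosomal RNA genes and builds ribosome subunits were examined in cultured mouse cells labelled female germline stem cells (FGSC), cells derived from the ovary and described as able to form oocytes, before and after induction of differentiation (Dif-FGSC). The genes were all rows of the deposited expression table whose symbol names an RNA polymerase I subunit or initiation factor, or belongs to the Nop, Utp, Nol, Rrp or Imp series of nucleolar proteins, together with Gar1, Nhp2, Dkc1, Fbl, Ncl, Npm1, Bop1, Pes1 and Wdr12. This rule matched 58 of the 24672 genes in the table and used no measured value. Of the 58, Nol3, an inhibitor of apoptosis, and the genes Nol4 and Nol4l share only the naming pattern and are kept apart below. The remaining 55 genes were grouped by what their proteins are known to do. Each gene was measured as FPKM, the number of sequenced fragments per kilobase of transcript and per M of mapped fragments (M stands for mega), in 3 libraries per group.

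Dif-FGSC were cells moved onto mitotically inactivated granulosa cells, the somatic cells that surround an oocyte, in medium with basic fibroblast growth factor (bFGF, 10 ng/mL), bone morphogenetic protein 4 (BMP4, 10 ng/mL) and 0.1 µmol/L retinoic acid. FGSC were kept on inactivated STO cells, a mouse embryonic fibroblast line, with 10 ng/mL leukemia inhibitory factor, 20 ng/mL epidermal growth factor, 10 ng/mL bFGF and 10 ng/mL glial cell line-derived neurotrophic factor. Cells of both groups were of the C57BL/6 strain, had passed more than 20 passages and grew in minimum essential medium alpha with fetal bovine serum. The age of the source animals is not given in the sources used here. Feeder cells, growth factors and retinoic acid changed together, so their contributions cannot be told apart. The series title concerns the start of meiosis under retinoic acid.

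RNA polymerase I transcribes the ribosomal RNA precursor in the nucleolus, where the factor Ubtf and a selectivity factor made of Tbp and the Taf1 proteins mark the promoter and Rrn3 brings in the polymerase. Small nucleolar ribonucleoproteins (snoRNPs) then guide methylation (box C/D type) or pseudouridylation (box H/ACA type) of the precursor, and a large assembly called the small subunit processome folds and cleaves it while other factors build the large subunit. Cells that grow and divide fast make many ribosomes, and ribosomal RNA synthesis is known to change when stem cells differentiate.

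The low values of the table implied 22.4, 19.5 and 19.7 M fragments in the Dif-FGSC libraries and 27.3, 21.8 and 17.3 M in the FGSC libraries. The number of genes above 0 in a library ranged from 12388 to 12830. Of 13 germ cell markers, 12 stayed below 0.1 FPKM in all 6 libraries and 9 were listed at 0 in all of them, among them Dazl, which goes against the labelled cell type. Summed germ cell markers came to 0.475 to 0.835 FPKM in Dif-FGSC libraries and 0 to 0.0588 in FGSC libraries. Zbtb16, a zinc finger factor also used by other cell types, alone gave 0.433, 0.478 and 0.749 FPKM of that sum in Dif-FGSC libraries and was listed at 0 in FGSC libraries. In addition, 9 of 10 fibroblast and 9 of 10 granulosa markers also stayed below 0.1 FPKM throughout. In contrast, 9 of 12 blood and mast cell markers reached 1 FPKM. The exceptions were Fcer1a, Hdc and Cd33, at no more than 0.0431, 0.149 and 0.162 FPKM. The 12 markers summed to 1128 to 1140 FPKM in Dif-FGSC libraries and 879 to 936 in FGSC libraries. Directions below therefore hold for libraries so labelled, and the part of this difference in marker level in any result was not tested. In bulk RNA, fewer cells of a type and less RNA per cell cannot be told apart.

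The genes did not move together. Of the 58 genes, 56 had a mean of at least 1 FPKM and were tested with limma across all 9162 genes at that level. Among the 56, 20 were called higher and 18 lower in Dif-FGSC at an adjusted p under 0.05, and 18 were not called. The called share was 67.9%, while 65.1% of all genes tested were called, 36.5% higher and 28.6% lower. The genes' own shares were 35.7% higher and 32.1% lower, close to these. Their median difference in log2(FPKM + 1), Dif-FGSC minus FGSC, was -0.04, against 0.03 for all genes tested. The FPKM of the 3 libraries of one group lay wholly above or below those of the other for 42 of the 56 (75.0%), and for 70.7% of all genes tested. Changes of at least 1.2-fold in FPKM + 1, not in FPKM, were called upward for 12 and downward for 7 of the 56 genes. The same limits were passed by 23.3% and 15.7% of all genes tested. With the libraries rescaled by median ratios, 17 (30.4%) were called higher and 23 (41.1%) lower, against 33.4% and 32.3% of all genes tested. With the trend on GC content removed, 15 (26.8%) were higher and 23 (41.1%) lower, against 32.1% and 32.3% of all genes.

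**Figure D1:**
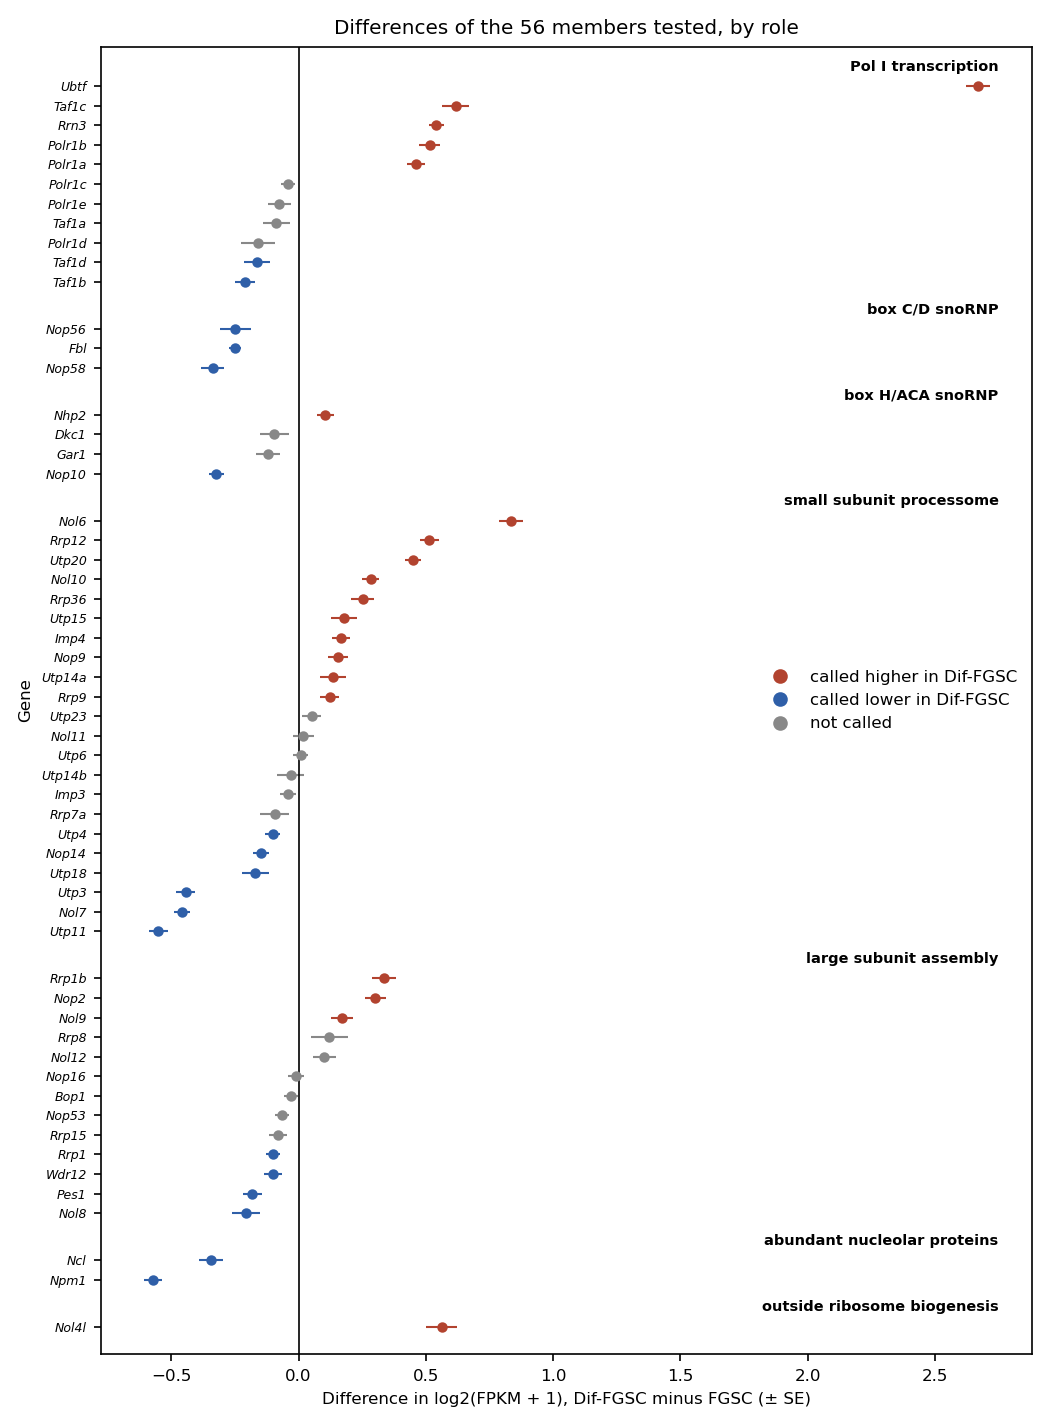
Difference in log2(FPKM + 1), Dif-FGSC minus FGSC, of the 56 genes tested, grouped by role, with points for the estimate and bars for its standard error from limma (n = 3 libraries per group). Ubtf stands apart at 2.67, 20 genes are called higher, 18 lower and 18 are not called.

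Opposite directions appeared within each of the larger roles. Summed over the genes of a role, polymerase I transcription genes averaged 425 ± 8.71 FPKM in Dif-FGSC and 378 ± 13.1 in FGSC (SD, n = 3 each), a ratio of 1.13. The 3 box C/D proteins summed to 645 ± 4.76 FPKM in Dif-FGSC and 785 ± 23.1 in FGSC, a ratio of 0.821. Npm1 and Ncl together gave 779 ± 22.3 FPKM in Dif-FGSC and 1095 ± 52.5 in FGSC, a ratio of 0.712, the lowest among the ribosome roles. The 4 box H/ACA proteins summed to 499 ± 7.11 FPKM in Dif-FGSC and 528 ± 5.10 in FGSC, a ratio of 0.945. The sums of small subunit genes (1068 ± 5.86 FPKM in Dif-FGSC, 1097 ± 26.9 in FGSC) and large subunit genes (827 ± 5.31 FPKM in Dif-FGSC, 832 ± 18.5 in FGSC) differed by less. The FPKM of all genes in the table summed to 3.551e+05 to 3.567e+05 in Dif-FGSC libraries and 3.752e+05 to 3.781e+05 in FGSC libraries. That total was thus also lower in Dif-FGSC, and its part in the ratios of the roles was not tested. The sums of the roles carry no test of their own.

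Promoter sequence was examined for 3 motifs. The E-box CACGTG is bound by basic helix-loop-helix factors such as Max and its partners, and CCGGAAG carries the core read by ETS family factors. RefSeq promoters of build GRCm38.p6 were held for 47 of the 58 genes, with 61 start sites. The table held none for Npm1, Fbl, Nop53, Bop1, Utp11, Utp6, Rrp12, Nol6, Utp23, Nol3 and Nol4. Within the 250 bases before the start, on either strand, CACGTG lay at 7 of 61 starts (11.5%) and at 6.02% of the 32851 promoters in the table. CCGGAAG lay at 14 of 61 starts (23.0%), against 6.91% of all promoters. The third, the palindromic site of the factor Nrf1, was at 0 of 61 starts and at 0.782% of all promoters. Counted by gene, CACGTG lay before 7 of 47 (14.9%) and CCGGAAG before 12 of 47 (25.5%), against 6.86% and 7.83% of 27025 genes. The promoters in the table were not limited to genes expressed in these libraries, so these shares are not matched for expression. CACGTG reads the same on both strands, and matches were counted whether or not they overlapped another motif.

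The E-box and CCGGAAG were found before genes of every call. The E-box lay before 3 of 18 genes called higher, 1 of 15 called lower and 3 of 14 not called. CCGGAAG lay before 5 of 18 genes called higher, 4 of 15 called lower and 3 of 14 not called. The promoters of 3 called genes are shown, each as the 250 bases before the start, read 5′ to 3′ on the gene's own strand, with motif matches in capitals. Nop2 and Utp18 were called in opposite directions and each hold both motifs, while Rrn3 is a polymerase I initiation factor with 2 E-boxes. Nop2 lies on the plus strand (chr6:125131633-125131882), Rrn3 on the plus strand (chr16:13780449-13780698) and Utp18 on the minus strand (chr11:93885767-93886016), all in GRCm38.p6.
Nop2: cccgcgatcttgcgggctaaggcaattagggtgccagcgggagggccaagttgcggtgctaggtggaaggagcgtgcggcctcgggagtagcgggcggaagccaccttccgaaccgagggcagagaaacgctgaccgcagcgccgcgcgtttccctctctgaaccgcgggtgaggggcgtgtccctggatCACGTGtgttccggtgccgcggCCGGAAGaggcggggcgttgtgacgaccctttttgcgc
Rrn3: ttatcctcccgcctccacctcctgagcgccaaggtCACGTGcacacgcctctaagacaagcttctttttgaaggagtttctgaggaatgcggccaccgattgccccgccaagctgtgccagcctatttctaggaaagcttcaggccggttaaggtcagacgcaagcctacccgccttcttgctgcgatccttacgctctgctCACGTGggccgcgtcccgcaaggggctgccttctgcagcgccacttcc
Utp18: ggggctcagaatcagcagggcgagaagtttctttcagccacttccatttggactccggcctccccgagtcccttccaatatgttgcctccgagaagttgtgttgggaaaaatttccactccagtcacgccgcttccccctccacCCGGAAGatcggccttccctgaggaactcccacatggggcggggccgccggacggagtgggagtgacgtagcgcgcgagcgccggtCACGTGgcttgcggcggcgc
In Nop2 the E-box ends 55 bases and CCGGAAG 32 bases before the start. In Rrn3 the E-boxes end 210 and 43 bases before it. In Utp18 CCGGAAG ends 100 and the E-box 15 bases before it. A match describes the letters and shows neither binding nor a cause.

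The catalytic core and the initiation factors of RNA polymerase I included the largest rise of the whole set. Of 11 genes of this role, 5 were called higher (45.5%), 2 lower (18.2%) and 4 not called, against 36.5% higher and 28.6% lower of all genes tested. Ubtf, the nucleolar factor that binds along ribosomal RNA genes and keeps them open, stood at 21.0, 20.9 and 20.9 FPKM in the Dif-FGSC libraries and 2.29, 2.67 and 2.42 FPKM in the FGSC libraries. All Dif-FGSC libraries were far above all FGSC libraries, with no overlap. The mean was 21.0 ± 0.0657 FPKM in Dif-FGSC and 2.46 ± 0.192 in FGSC, 8.52-fold higher in Dif-FGSC (difference in log2(FPKM + 1) 2.67 ± 0.05 SE, limma adjusted p = 2.76e-08). Ubtf has 13 annotated transcripts in the reference used, and its values carry more digits than a single estimate has. Such values, found for 17 of the 58 genes, have the form of a mean over several transcripts, so the level of Ubtf may depend on how fragments were shared among its isoforms, which was not tested. Among genes given below in every library, Polr1d, Taf1a, Taf1b, Taf1d, Rrp1b, Nol8, Npm1 and Nol4l have such values too. On the further lists below they include those of Znrd1, Polr2k, Tcof1, Mlx and Ddx55.

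Rrn3, which carries the polymerase to its promoter, had 50.7, 52.1 and 50.3 FPKM in Dif-FGSC libraries and 35.6, 34.7 and 34.0 FPKM in FGSC libraries. It was 1.47-fold higher in Dif-FGSC (log2 difference 0.54 ± 0.03, limma adjusted p = 5.91e-06), and the groups did not overlap. Polr1a, the largest catalytic subunit, had 45.8, 46.1 and 45.7 FPKM in Dif-FGSC libraries and 31.7, 33.5 and 34.1 FPKM in FGSC libraries. This was a 1.39-fold rise (log2 difference 0.46 ± 0.03, limma adjusted p = 2.08e-05), and the Dif-FGSC libraries spanned 0.461 FPKM. Polr1b, the second catalytic subunit, had 56.1, 55.2 and 55.1 FPKM in Dif-FGSC libraries and 40.0, 39.4 and 36.3 FPKM in FGSC libraries. It rose 1.44-fold (log2 difference 0.51 ± 0.04, limma adjusted p = 2.64e-05), again with no overlap. With the trend on coding length removed, the log2 differences of Polr1a and Polr1b were 0.23 and 0.34, and both stayed called.

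The smaller subunits that the symbol rule matched were not called. They were Polr1c and Polr1d, which RNA polymerase III also contains, and Polr1e, a subunit specific to polymerase I. Polr1c had 71.4, 71.4 and 70.0 FPKM in Dif-FGSC libraries and 72.8, 72.3 and 74.1 FPKM in FGSC libraries, so the groups were apart but by 0.971-fold only (limma adjusted p = 0.187). It was called lower under median-ratio scaling and with the GC content trend removed, with an adjusted p between 0.00207 and 0.372 over its alternatives. Polr1d had 125, 126 and 142 FPKM in Dif-FGSC libraries and 149, 156 and 134 FPKM in FGSC libraries, and the groups overlapped. Its adjusted p by limma was 0.0718. Leaving out Dif-FGSC replicate 3 or FGSC replicate 3, the samples in the overlap, made it a call, as did median-ratio scaling and removal of the GC content trend. Polr1e stood at 10.2, 10.1 and 10.2 FPKM in Dif-FGSC libraries and 11.2, 11.1 and 10.1 FPKM in FGSC libraries, where replicate 3 of FGSC lay just under the Dif-FGSC values (limma adjusted p = 0.171). Polr1e was called lower without that library, under quantile normalization and with the GC content trend removed.

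The Taf1 subunits of the selectivity factor moved in both directions. Taf1c had 12.4, 12.4 and 12.6 FPKM in Dif-FGSC libraries and 8.35, 7.90 and 7.15 FPKM in FGSC libraries. It was 1.60-fold higher in Dif-FGSC (log2 difference 0.62 ± 0.05, limma adjusted p = 4.28e-05). Taf1b had 5.94, 6.18 and 5.79 FPKM in Dif-FGSC libraries and 6.91, 7.19 and 7.09 FPKM in FGSC libraries. It fell to 0.845-fold (log2 difference -0.21 ± 0.04, limma adjusted p = 0.00236). For both genes every library of one group was beyond every library of the other. Taf1d had 18.6, 19.2 and 20.6 FPKM in Dif-FGSC libraries and 23.3, 20.9 and 21.6 FPKM in FGSC libraries, with a gap of 0.374 FPKM between the groups. It was called lower at 0.888-fold (log2 difference -0.16 ± 0.05, limma adjusted p = 0.024). That call was lost without Dif-FGSC replicate 1, without Dif-FGSC replicate 2, without FGSC replicate 1 and with the GC content trend removed, and the adjusted p over its alternatives ran from 0.00424 to 0.382. Taf1a, at 2.03, 2.12 and 2.18 FPKM in Dif-FGSC libraries and 2.35, 2.15 and 2.42 FPKM in FGSC libraries, overlapped and was not called (limma adjusted p = 0.181), but was called lower under quantile normalization.

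**Figure D2:**
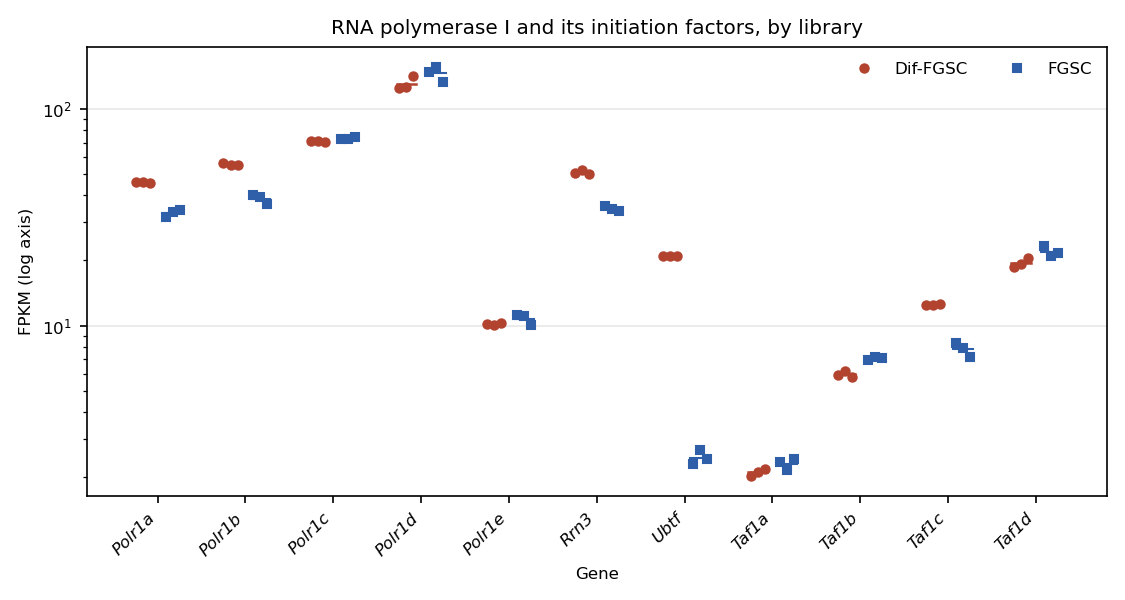
FPKM (log axis) of the 11 RNA polymerase I transcription genes, with a point for each library and a line for the mean of 3 Dif-FGSC and 3 FGSC libraries. Ubtf averages 21.0 FPKM in Dif-FGSC and 2.46 in FGSC, while Polr1d, Polr1e and Taf1a overlap between the groups.

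The 3 proteins of the box C/D snoRNP, the particle that methylates ribosomal RNA, that the symbol rule matched were called lower in Dif-FGSC. Among all genes tested, 28.6% were called lower. Snu13, the fourth core protein of the particle and read from a further list, was also called lower, at 0.796-fold (limma adjusted p = 0.000637). Nop58, a scaffold protein of the particle, had 228, 230 and 239 FPKM in Dif-FGSC libraries and 317, 283 and 284 FPKM in FGSC libraries, a fall to 0.789-fold (log2 difference -0.34 ± 0.05, limma adjusted p = 0.000466). The methyltransferase Fbl had 307, 312 and 303 FPKM in Dif-FGSC libraries and 359, 368 and 368 FPKM in FGSC libraries, 0.841-fold (log2 difference -0.25 ± 0.02, limma adjusted p = 7.63e-05). The groups did not overlap for either gene. Nop56, the partner of Nop58, averaged 105 ± 0.776 FPKM in Dif-FGSC and 125 ± 11.3 in FGSC and was also called lower at 0.838-fold (limma adjusted p = 0.00786). Under quantile normalization the log2 difference of Fbl was -0.03 and that of Nop58 -0.19. The call of Fbl was lost there, with its adjusted p over the alternatives between 9.21e-06 and 0.41.

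Against 36.5% higher and 28.6% lower of all genes tested, the box H/ACA particle had 1 of 4 genes (25%) called in each direction. The particle converts uridine to pseudouridine and also stabilises telomerase RNA. Nop10, its smallest protein, had 152, 156 and 158 FPKM in Dif-FGSC libraries and 195, 189 and 199 FPKM in FGSC libraries. It fell to 0.799-fold with no overlap (log2 difference -0.32 ± 0.03, limma adjusted p = 5.4e-05), and its log2 difference was -0.16 with the coding length trend removed. Nhp2, another structural protein, had 255, 260 and 250 FPKM in Dif-FGSC libraries and 243, 242 and 227 FPKM in FGSC libraries, 1.07-fold higher (log2 difference 0.10 ± 0.03, limma adjusted p = 0.0272). The small rise of Nhp2 was not called without Dif-FGSC replicate 1, without Dif-FGSC replicate 2, with no low-value filter, without the intensity trend, under median-ratio scaling or with the GC content trend removed. Its adjusted p over the alternatives ran from 0.000306 to 0.835. The pseudouridine synthase Dkc1, at 19.6 ± 0.256 FPKM in Dif-FGSC and 21.0 ± 1.77 in FGSC, was not called (limma adjusted p = 0.172), but was called lower without FGSC replicate 3 and under quantile normalization. Gar1, at 68.8 ± 3.35 FPKM in Dif-FGSC and 74.8 ± 3.62 in FGSC, was not called either (limma adjusted p = 0.0585). With the replicate number as a block Gar1 was called lower (limma adjusted p = 0.0172), as it was without Dif-FGSC replicate 3, without FGSC replicate 1, under median-ratio scaling and with the GC content trend removed, and its adjusted p over the alternatives ran from 0.00319 to 0.185.

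The small subunit processome, the largest role with 22 genes, split into 10 called higher (45.5%), 6 lower (27.3%) and 6 not called. All genes tested had 36.5% higher and 28.6% lower. The median log2 difference of the role was 0.03. Nol6, a processome protein that binds the ribosomal RNA precursor, rose most. It had 43.3, 41.0 and 41.8 FPKM in Dif-FGSC libraries and 23.9, 24.0 and 21.6 FPKM in FGSC libraries, 1.82-fold higher (log2 difference 0.83 ± 0.05, limma adjusted p = 5.47e-06). Rrp12, which acts in maturation and export of the small subunit, had 35.6, 33.5 and 33.8 FPKM in Dif-FGSC libraries and 24.2, 23.9 and 23.0 FPKM in FGSC libraries, 1.45-fold higher (log2 difference 0.51 ± 0.04, limma adjusted p = 1.71e-05). Neither gene's groups overlapped. With the coding length trend removed the log2 difference of Rrp12 was 0.32.

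Among the falls, the processome protein Utp11 had 62.9, 68.4 and 66.9 FPKM in Dif-FGSC libraries and 96.9, 95.5 and 99.2 FPKM in FGSC libraries, 0.680-fold (log2 difference -0.55 ± 0.04, limma adjusted p = 1.27e-05). Nol7, a nucleolar protein of early precursor processing, had 64.5, 62.2 and 64.3 FPKM in Dif-FGSC libraries and 88.5, 89.9 and 85.3 FPKM in FGSC libraries, 0.725-fold (log2 difference -0.46 ± 0.03, limma adjusted p = 1.35e-05). Each Dif-FGSC library was lower than any FGSC library, by at least 27.1 FPKM for Utp11 and 20.8 FPKM for Nol7. Utp3 was the next largest fall at 0.733-fold, and Utp20 the next largest rise at 1.38-fold. With the coding length trend removed the log2 difference of Utp20 was 0.17, against 0.45 with it.

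The remaining processome genes moved less. Nol10, Rrp36, Utp15, Imp4, Nop9, Utp14a and Rrp9 were called higher with folds between 1.09 and 1.23, and Utp18, Nop14 and Utp4 lower with folds between 0.885 and 0.930. The call of Utp18 was lost when Dif-FGSC replicate 1 or 3 or FGSC replicate 1 or 2 was left out and with the GC content trend removed, and that of Utp4 without Dif-FGSC replicate 2 or 3. The call of Utp15 was lost without Dif-FGSC replicate 1 or 3, under quantile normalization and with the length trend removed, and that of Nop9 with the length or the GC content trend removed. That of Rrp9 was lost without Dif-FGSC replicate 2, under median-ratio scaling and with the length or the GC content trend removed. The rise of Utp14a was called in only 5 of 17 alternatives, and among the single libraries left out only without FGSC replicate 1. Rrp7a, Imp3, Utp14b, Utp6, Nol11 and Utp23 were not called, with folds between 0.933 and 1.04. Of these, Rrp7a was called lower without FGSC replicate 3 and with the GC content trend removed, Imp3 with the GC content trend removed and Utp14b with the length trend removed. Utp14b is a processed copy of Utp14a in the mouse, and how the counting shared reads between the pair is not given in the sources used here. Imp3 and Imp4 bind the same small nucleolar RNA within the processome. Imp4 averaged 120 ± 1.11 FPKM in Dif-FGSC and 107 ± 4.69 in FGSC, while Imp3 averaged 71.2 ± 1.80 FPKM in Dif-FGSC and 73.3 ± 1.81 in FGSC.

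Large subunit factors gave 3 genes called higher (23.1%), 4 lower (30.8%) and 6 not called of 13. Their median log2 difference was -0.03, and all genes tested had 36.5% higher and 28.6% lower. Rrp1b, a nucleolar protein of large subunit processing, had 20.8, 20.8 and 20.5 FPKM in Dif-FGSC libraries and 17.4, 15.9 and 15.3 FPKM in FGSC libraries, 1.28-fold higher (log2 difference 0.34 ± 0.05, limma adjusted p = 0.000587). Nop2, a methyltransferase of large subunit ribosomal RNA whose promoter is printed above, had 110, 107 and 110 FPKM in Dif-FGSC libraries and 91.2, 91.5 and 82.9 FPKM in FGSC libraries, 1.23-fold higher (log2 difference 0.30 ± 0.04, limma adjusted p = 0.000514). The groups did not overlap for either gene. The log2 difference of Nop2 was 0.18 with the coding length trend removed and still called. The related gene Rrp1, a paralog of Rrp1b, was called lower, at a mean of 128 FPKM in Dif-FGSC and 138 in FGSC, a call lost when Dif-FGSC replicate 1 or 3 or FGSC replicate 2 was left out and under quantile normalization.

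Pes1, Bop1 and Wdr12 form one complex that large subunit maturation requires. Pes1 had 75.9, 76.6 and 76.5 FPKM in Dif-FGSC libraries and 83.1, 91.1 and 86.0 FPKM in FGSC libraries, 0.880-fold (log2 difference -0.18 ± 0.04, limma adjusted p = 0.0033), with all Dif-FGSC libraries below all FGSC libraries. Wdr12 was called lower at 0.930-fold (limma adjusted p = 0.0307), a call lost when Dif-FGSC replicate 1 or 2 or FGSC replicate 1 or 2 was left out and with the GC content trend removed. With the replicate number as a block the adjusted p of Wdr12 by limma was 0.0633, in a range of 0.00317 to 0.457 over its alternatives. Bop1 was not called at 0.979-fold (limma adjusted p = 0.349), but was called lower with the length or the GC content trend removed. Nol8, a nucleolar protein, had 5.18, 5.20 and 5.56 FPKM in Dif-FGSC libraries and 6.72, 5.84 and 6.31 FPKM in FGSC libraries, 0.845-fold (log2 difference -0.21 ± 0.05, limma adjusted p = 0.0119). The groups of Nol8 stood 0.284 FPKM apart at their nearest. Its log2 difference was -0.12 and not called with the GC content trend removed and -0.39 with the coding length trend removed, and its adjusted p over the alternatives ran from 0.000549 to 0.0588. The polynucleotide kinase Nol9 was called higher at 1.13-fold, but not under quantile normalization or with the length or GC content trend removed.

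The 2 abundant multifunctional proteins of the nucleolus fell, where 28.6% of all genes tested were called lower. Npm1, the nucleolar chaperone nucleophosmin, had 477, 471 and 495 FPKM in Dif-FGSC libraries and 747, 713 and 688 FPKM in FGSC libraries, 0.672-fold (log2 difference -0.57 ± 0.04, limma adjusted p = 9.34e-06). No library of one group came near the other. Npm1 has processed pseudogenes that share its sequence, and its values have the form of a mean over transcripts, so its level is uncertain. Ncl, the RNA-binding protein nucleolin, had 291, 293 and 309 FPKM in Dif-FGSC libraries and 406, 367 and 364 FPKM in FGSC libraries, 0.787-fold (log2 difference -0.34 ± 0.05, limma adjusted p = 0.000472). Its groups did not overlap, and under quantile normalization its log2 difference was -0.14 and still called.

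**Figure D3:**
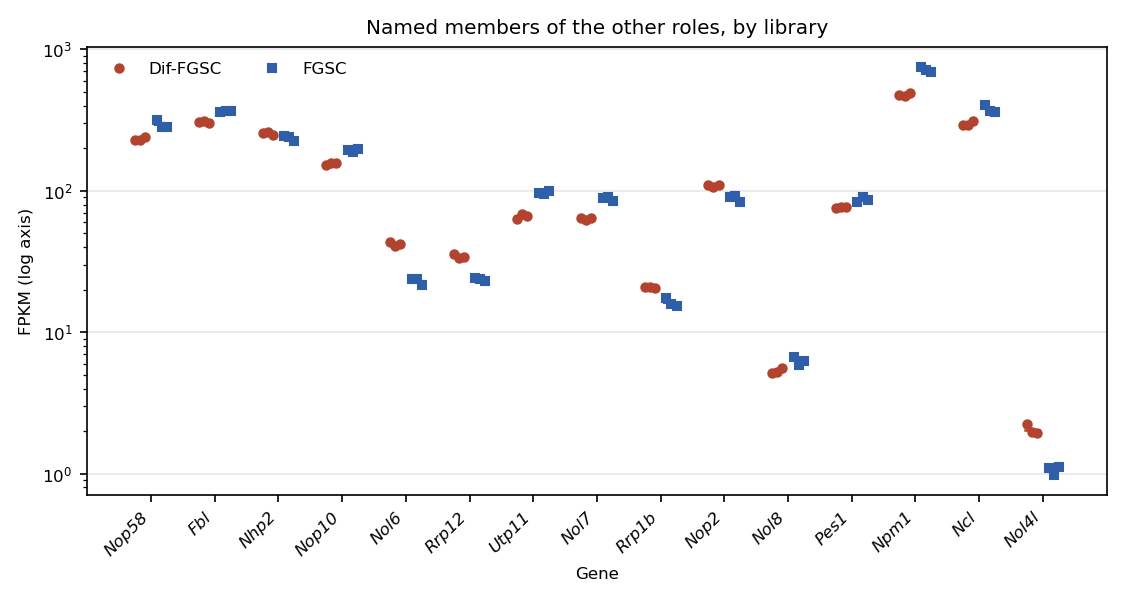
FPKM (log axis) of the snoRNP, processome, large subunit and abundant nucleolar genes given with values in every library, and of Nol4l, outside ribosome biogenesis. Each library has a point, and a line gives the mean of 3 Dif-FGSC and 3 FGSC libraries. Npm1 averages 481 FPKM in Dif-FGSC and 716 in FGSC, and Nol6 averages 42.0 FPKM in Dif-FGSC and 23.2 in FGSC.

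The 3 genes outside ribosome biogenesis were low. Nol4l had 2.25, 1.98 and 1.94 FPKM in Dif-FGSC libraries and 1.11, 0.988 and 1.11 FPKM in FGSC libraries, 1.93-fold higher with no overlap (log2 difference 0.56 ± 0.06, limma adjusted p = 0.000133). Nol3 was listed at 0.282, 0 and 0 FPKM in Dif-FGSC libraries and at 0 in each FGSC library, and Nol4 was listed at 0 in all 6. Neither reached the level at which genes were tested. With a pseudocount of 0.1 in place of 1 the log2 difference of Nol4l was 0.88. Without these genes the counts for the 55 ribosome biogenesis genes were 19 higher, 18 lower and 18 not called.

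Gene length moved with the direction. Of 17 genes with a coding sequence under 1000 bases, 3 were called higher and 6 lower, and of the 6 genes with 3000 bases or more, 5 were called higher and 1 lower. In these end classes the same order held over all genes tested. There, 715 of 2942 genes under 1000 bases were higher and 1119 lower. Of 1175 genes with 3000 bases or more, 715 were higher and 166 lower. From 1000 to under 2000 bases the order differed. Of the 56 genes, 19 lay there, 4 higher and 8 lower, against 1232 higher and 978 lower of all 3441. From 2000 to under 3000 bases, 8 of 14 were higher and 3 lower, against 646 higher and 271 lower of all 1394. Across the 56 genes the Spearman correlation of the log2 difference with coding length was 0.449, and across 8952 genes with a known length it was 0.267. With GC content of the transcript the correlations were 0.469 over the 56 genes and 0.254 over 9120 genes. These are descriptions across genes, all measured in the same 6 libraries. With the length trend removed, 16 genes were called higher (28.6%) and 21 lower (37.5%), against 32.1% of all genes in each direction, and these included 15 of the 20 rises and all 18 falls. The part of length and GC content in the differences was otherwise not tested.

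**Figure D4:**
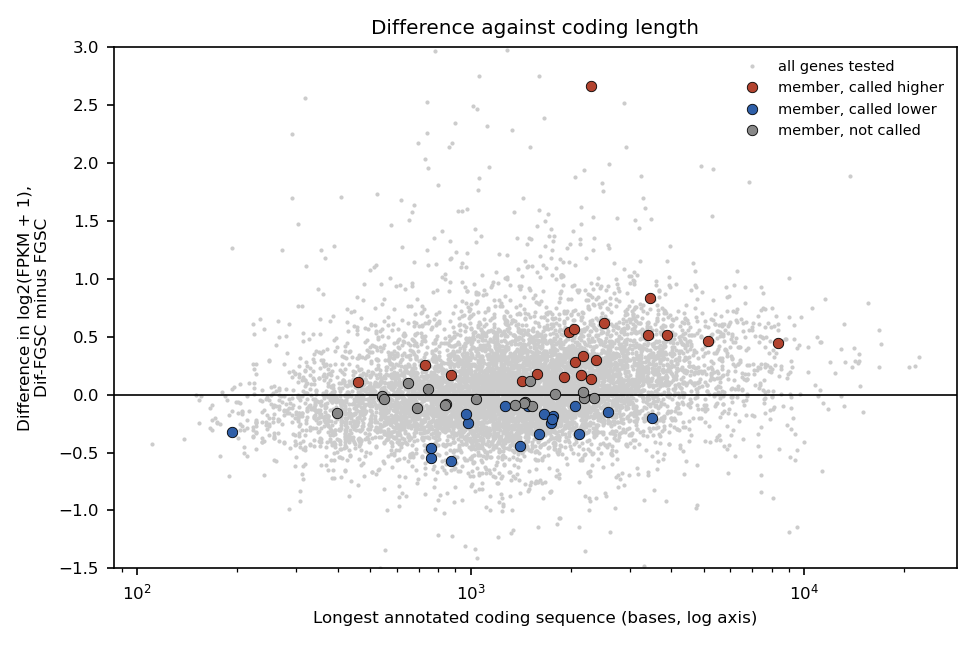
Difference in log2(FPKM + 1), Dif-FGSC minus FGSC, against the longest annotated coding sequence in bases (log axis), with all genes tested in grey and the 56 genes coloured by call. The axis runs from -1.5 to 3 and leaves out 52 other genes; 5 of the 6 genes with 3000 bases or more are called higher.

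Genes of the same pathway that carry other symbols were read from 6 lists with 129 genes in the table, of which 125 were tested. Of these, 42 were called higher, 44 lower and 39 not called, with a median log2 difference of -0.01. These shares were 33.6% higher and 35.2% lower, against 36.5% and 28.6% of all genes tested. Among 17 tested shared subunits and regulators of RNA polymerase I, 5 were higher (29.4%) and 6 lower (35.3%). Mybbp1a, a nucleolar protein that restrains ribosomal RNA transcription, averaged 282 ± 3.03 FPKM in Dif-FGSC and 196 ± 6.28 in FGSC, 1.44-fold higher (limma adjusted p = 5.8e-06). Tcof1, the nucleolar protein treacle that works with Ubtf, averaged 46.0 ± 0.231 FPKM in Dif-FGSC and 32.7 ± 1.25 in FGSC, 1.40-fold higher (limma adjusted p = 1.73e-05). With the coding length trend removed their log2 differences were 0.32 and 0.28, against 0.52 and 0.48 with it, and both stayed called. By the difference in log2(FPKM + 1) the largest falls of this list were Znrd1 and Polr2k. Znrd1, a zinc-ribbon subunit of polymerase I, averaged 20.5 ± 1.28 FPKM in Dif-FGSC and 31.6 ± 1.94 in FGSC (limma adjusted p = 7.31e-05), and Polr2k, shared by all 3 nuclear polymerases, averaged 21.8 ± 1.79 FPKM in Dif-FGSC and 30.1 ± 4.22 in FGSC (limma adjusted p = 0.00559). The log2 difference of Polr2k was -0.44, and -0.25 with the GC content trend removed. Other small subunits differed in direction. Cd3eap, a polymerase I subunit that pairs with Polr1e, averaged 36.4 ± 2.14 FPKM in Dif-FGSC and 27.9 ± 3.06 in FGSC and was called higher at 1.30-fold (limma adjusted p = 0.00414). Polr2e, another shared subunit, was called higher at 1.12-fold, Twistnb, a polymerase I subunit, lower at 0.879-fold, and the shared subunits Polr2f, Polr2h and Polr2l were not called. Tbp, the remaining subunit of the selectivity factor, was called lower at 0.738-fold (limma adjusted p = 5.95e-05).

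The other lists also held genes of both directions. A list of Max with its partners and of Mlx and Mlxip, which pair with each other in a related branch, had 8 tested genes. Of these 5 were called higher and 2 lower (62.5% and 25.0%, against 36.5% and 28.6% of all genes tested), with a median log2 difference of 0.43, and Mlx and Mlxip were among the rises. By the difference in log2(FPKM + 1) the largest rises were Mnt and Mxd4. The repressor partner Mnt averaged 13.6 ± 1.00 FPKM in Dif-FGSC and 8.57 ± 0.686 in FGSC, 1.58-fold higher, and Mxd4 was 1.47-fold higher. Mxd1 and Mlx had larger FPKM ratios than Mxd4, at 1.70-fold and 1.48-fold. Mxi1 was lower at 0.779-fold and Max itself at 0.926-fold, a call lost when any single library other than FGSC replicate 3 was left out, with no low-value filter, without the intensity trend and with the coding length trend removed (log2 difference -0.04). Of 35 genes on the small subunit list, not all of them processome proteins, 13 were higher (37.1%) and 11 lower (31.4%). These counts were 7 (20.0%) and 16 (45.7%) with the coding length trend removed, where 32.1% of all genes were called in each direction. Under median-ratio scaling they were 8 (22.9%) and 12 (34.3%), against 33.4% and 32.3% of all genes. Bms1, a processome GTPase called higher at a log2 difference of 0.08, was called lower at -0.11 with the length trend removed. The helicase Dhx37 averaged 30.3 ± 0.507 FPKM in Dif-FGSC and 16.3 ± 0.519 in FGSC, 1.87-fold higher (limma adjusted p = 1.43e-06), and Pwp2 was 1.27-fold higher. Krr1 and Mphosph10 were lower at 0.704-fold and 0.738-fold. With the coding length trend removed, Pwp2 stood at a log2 difference of 0.20, against 0.34 with it.

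Of 40 other large subunit factors, 15 were higher (37.5%) and 13 lower (32.5%), against 10 and 18 with the coding length trend removed. The extremes were a pair of DEAD-box RNA helicases. Ddx55 averaged 13.6 ± 0.602 FPKM in Dif-FGSC and 5.84 ± 0.0711 in FGSC, 2.33-fold higher (limma adjusted p = 1.03e-06). Ddx27 averaged 66.3 ± 1.13 FPKM in Dif-FGSC and 108 ± 2.80 in FGSC, 0.612-fold (limma adjusted p = 1.83e-06). Mdn1, a giant ATPase that releases assembly factors, was 1.49-fold higher, with a log2 difference of 0.55 that was 0.21 with the coding length trend removed. Gnl3, the GTPase nucleostemin, was lower at 0.731-fold. The RNA exosome, which trims ribosomal RNA ends, had 3 higher (21.4%) and 9 lower (64.3%) of 14, with a median log2 difference of -0.16. All genes tested had 36.5% higher and 28.6% lower. With the GC content trend removed 1 exosome gene was higher (7.14%) and 6 lower (42.9%), against 32.1% and 32.3% of all genes. Exosc1 and Exosc9 were its largest falls at 0.755-fold and 0.774-fold, and Exosc4, at 1.29-fold, and Exosc5 its largest rises. The call of Exosc5 was lost with the GC content trend removed. Of 11 snoRNP assembly factors, 1 was called higher (9.09%) and 3 lower (27.3%), against 36.5% and 28.6% of all genes tested. The rise was Naf1, which assembles the H/ACA particle, at 1.41-fold. The falls included the chaperone cofactors Rpap3 at 0.814-fold and Pih1d1 at 0.845-fold. The call of Pih1d1 was lost without FGSC replicate 2, and its log2 difference of -0.23 was -0.15 without Dif-FGSC replicate 1.

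**Figure D5:**
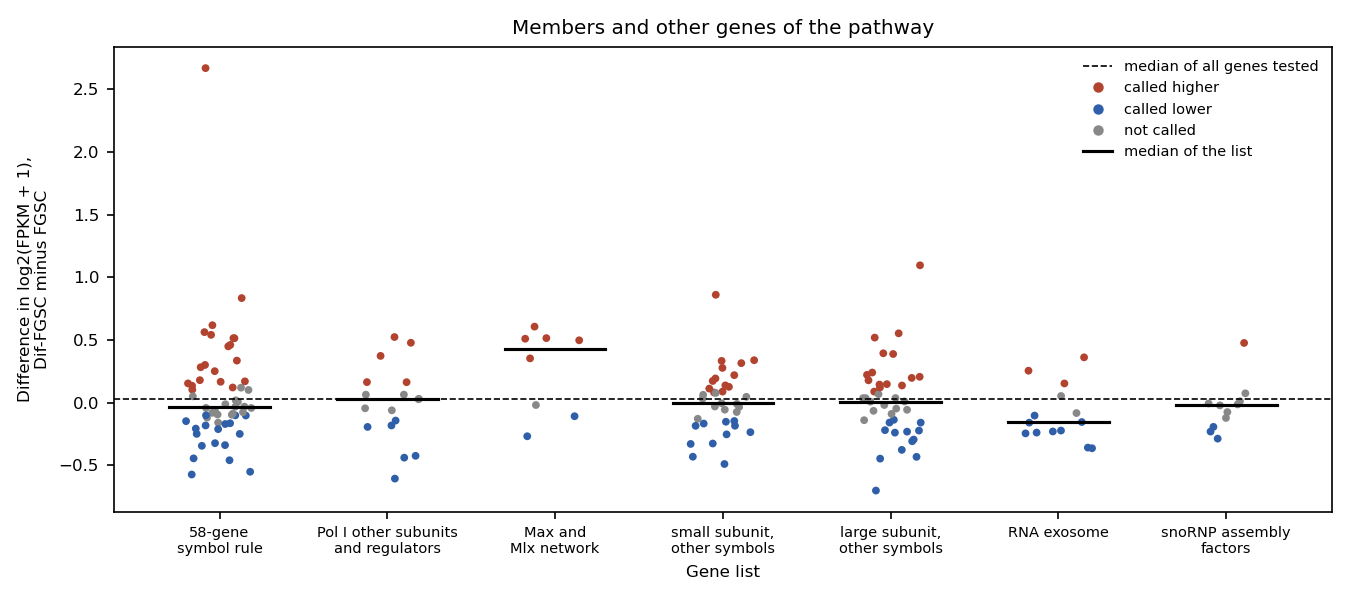
Difference in log2(FPKM + 1), Dif-FGSC minus FGSC, of the 56 genes and of the tested genes of 6 further lists, each point a gene coloured by call, with a solid line at the list's median and a dashed line at the median of all genes tested (0.03). The list medians run from -0.16 for the RNA exosome to 0.43 for the Max and Mlx network.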

How the data were processed

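Poly(A) RNA of 6 libraries was sequenced after Trizol extraction and a KAPA stranded mRNA preparation, per the labels' protocols. FPKM values per gene symbol were deposited by the authors. HISAT2 4.8.2, Cufflinks 2.2.1 and build mm9 are named in the submitters' processing notes. No source used here gives the annotation or the strand setting, so overlapping, antisense and near-identical genes are uncertain. Columns named con were taken as the controls, hence FGSC, and those named dif as Dif-FGSC. This is a reading of the names that no label states, and every direction rests on it.

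Of 24674 rows, 2 duplicated symbols were dropped, and 26 symbols had the form of a date. There was also 1 further column with entries, which was not used. FPKM is not a count, so limma 3.58.1 (R 4.3.3; lmFit, eBayes with an intensity trend, two-sided) was run on log2(FPKM + 1) for the 9162 genes with a mean of at least 1 FPKM, with Benjamini-Hochberg adjustment over all of them and calls at an adjusted p under 0.05. Log2 differences are Dif-FGSC minus FGSC on that scale, where changes of low genes come out too small; ± is their SE, and the SD of 3 libraries after an FPKM value. The fit was tested on simulated data with independent normal noise and few changed genes. These data differ in both respects or may do so, and no conclusion is drawn from that run. With 3 libraries against 3, an exact permutation test of a single gene cannot go below 0.1. The labels do not state separate cultures. The p-values therefore reflect the spread among libraries, which may be technical.

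Depth was estimated from the steps of low values, drawn from 5976 genes with 1 annotated transcript. The search had a set upper bound, so a depth above it could not be found. Of the 354 to 403 low values used per library, 71.3% to 75.1% lay within 0.1 of a whole fragment. A floor of 3 fragments on 2000 bases is 0.055 to 0.0865 FPKM, for counting error only. Coding length and GC content came from a GRCm38 annotation matched by symbol, promoters from RefSeq.

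The genes, the lists and the alternatives were chosen with earlier results of these data known. Values in every library are given for the polymerase I genes and, in each other role, for up to 2 called genes with the largest rise and 2 with the largest fall whose groups did not overlap; from each further list the 2 largest of each direction are named, all ranked by the difference in log2(FPKM + 1). Nop56, Snu13, Cd3eap, Tbp, Bms1, Mxd1, Dkc1, Gar1, Imp3, Imp4, Rrp1, Wdr12, Bop1 and other genes given by mean or fold were named for their role or rank. A further gene that this ranking rule would name from outside the 58 is not analysed here.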

Additional observations from a re-analysis of the deposited data

How the results depend on the processing

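Over 17 alternatives, no gene given with values in every library that was called changed direction. Of the 20 rises, 14 stayed called in every alternative in which they were tested, and of the 18 falls, 11 did. The exceptions were Nhp2, Rrp9, Nop9, Utp14a, Utp15 and Nol9 among the rises and Fbl, Rrp1, Utp4, Utp18, Wdr12, Taf1d and Nol8 among the falls. With the GC content trend removed, Rrp9 (log2 difference -0.03) and Wdr12 (0.03) had the opposite sign and were not called. Of the 18 genes not called, 13 gained a call in at least 1 alternative, 12 of them lower and 1, Nol12, higher. Leaving out 1 library at a time gave 17 to 20 rises and 14 to 24 falls, the highest count of falls without FGSC replicate 3. Median-ratio scaling gave 17 and 23, quantile normalization 17 and 19. The further lists gave 30 to 42 rises and 39 to 55 falls in the alternatives that tested at least 120 of their genes, and 33 of each among the 94 genes whose values had at most 6 digits. Over all genes, median-ratio scaling gave 3061 higher and 2960 lower and quantile normalization 2789 and 3185. Removing the length trend gave 2876 and 2877 of 8952 genes, and removing the GC content trend 2929 and 2949 of 9120. Chosen after seeing the data were the removal of the length trend, of the GC content trend, of genes listed at 0 and of genes with values of more than 6 digits. The last left fewer genes to test and called 1968 higher and 1688 lower of all genes, with 16 rises and 12 falls among the 39 ribosome genes it held. Replicate numbers are shared by the labels, but same-numbered libraries deviated together only weakly (correlations 0.131, 0.0123 and 0.174). With the replicate number as a block, 19 genes rose and 18 fell, with the calls of Utp14a and Wdr12 lost and that of Gar1 gained. Estimated depth was 17.3 to 27.3 M fragments, and the 3 genes outside ribosome biogenesis lie nearest to its floor. No depth limit applies to the abundant genes, whose limits are the combining of transcript estimates, shared sequence and scaling named above.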
